A study of Rattus norvegicus with 10 samples.

Results

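Kcna4 and Kcne2, a pair of potassium channel genes of the heart, were examined in the left ventricle of rats given dexmedetomidine (DEX), a selective agonist of the alpha2 adrenergic receptor. They are 2 of the 20174 genes with a probe on the array. Both were taken from the study's list of down-regulated mRNAs, whose members were chosen by the ratio of the DEX to the control mean signal on these same arrays and its p-value, so that the difference between the groups is given for both as a description without a test. mRNA was measured in 10 male Wistar rats of 250 to 350 g on one-colour oligonucleotide arrays, with 1 array per rat. The DEX group (n = 5) was infused intravenously with DEX for 30 min, at 6 mcg/kg/h during the first 10 min and 0.7 mcg/kg/h during the next 20 min, followed by 5 min of saline washout. The control group (n = 5) was infused with saline alone. In the methods for the infarct rats of this study, anesthesia was with sevoflurane and butorphanol. For the array rats, anesthesia was not given in the sources used here, and neither was age. No ischemia was applied in the array protocol. RNA came from the anterior wall of the left ventricle.

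Cardiac myocytes repolarize through potassium currents that follow each other during the action potential. Kcna4 encodes Kv1.4, the pore-forming alpha subunit of a voltage-gated channel that inactivates fast, recovers slowly and contributes to the transient outward current of early repolarization. Kcne2 encodes MiRP1, a small accessory subunit with a single membrane span, which forms no pore itself but joins pore-forming subunits such as those of Kcnh2 and Kcnq1 and alters their gating. Changes in KCNE2 and KCNH2 are known from inherited arrhythmias in man.

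The study lists Kcna4 as a predicted target of rno-miR-301b-3p and Kcne2 as a predicted target of rno-miR-324-5p, and both mature miRNAs are shown because they are the link under which the study selected these genes. The sequences are those of RefSeq on the rat assembly GRCr8, 5′ to 3′, with the seed (bases 2 to 8) in capitals.
rno-miR-301b-3p (chr11:97384077-97384099, plus strand): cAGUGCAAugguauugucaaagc
rno-miR-324-5p (chr10:55233378-55233400, plus strand): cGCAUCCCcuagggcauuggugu
The seeds differ, so the pair of genes was not listed under 1 shared seed. The levels of the miRNAs and their sites in the mRNAs were not analysed here.

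A normalized signal is the spot intensity minus the mean of the blank spots of the same array, scaled so that the median of the detected probes is 25. Between 13528 and 15337 probes were detected per array, and log2 signals of different arrays correlated at 0.982 to 0.994 across the 12718 probes detected on all 10. Among the 14519 probes compared with limma, 392 (2.70%) were lower in the DEX group by 1.5-fold or more with an unadjusted p-value under 0.05, and 64 were higher by these limits. After Benjamini-Hochberg adjustment limma left 0 probes under 0.05, against 2100 before adjustment. A variance trend with robust estimation left 2, and the fit without control array 5 left 19. Under this scaling the median of all log2 differences, DEX minus control, was -0.17. Whether the rats differed in the share of a cell type or in mRNA per cell cannot be told apart in bulk tissue.

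Kcna4 (probe ENSRNOG00000004918) had normalized signals of 26.3, 21.4, 19.9, 19.0 and 18.0 in control rats 1 to 5. In DEX rats 1 to 5 its signals were 15.2, 9.69, 14.5, 15.3 and 11.8. Every DEX rat was below every control rat, with a space of 2.76 between the lowest control rat and the highest DEX rat. Control rats averaged 20.9 ± 3.23 and DEX rats 13.3 ± 2.47 (each SD, n = 5), a log2 difference of -0.66 (standard error 0.16) or a 1.58-fold lower signal. The probe was detected on all 10 arrays. Its spots stood 12.1 to 18.8 times as far above the blank mean as the detection limit on the control arrays, and 6.47 to 10.9 times on the DEX arrays.

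Kcne2 (probe ENSRNOG00000029811) had normalized signals of 10.7, 9.99, 7.38, 7.25 and 9.13 in control rats 1 to 5. In DEX rats 1 to 5 they were 7.20, 7.01, 5.06, 4.30 and 2.97. The groups did not overlap here either, but control rat 4 and DEX rat 1 were only 0.0516 apart. Control rats averaged 8.89 ± 1.53 and DEX rats 5.31 ± 1.80 (each SD, n = 5), a log2 difference of -0.80 (standard error 0.23) or a 1.74-fold lower signal in the DEX group. The probe of Kcne2 was also detected on all 10 arrays, at 4.49 to 7.64 times the distance of the detection limit from the blank mean in the control group and 1.69 to 5.16 times in the DEX group.

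**Figure D1:**
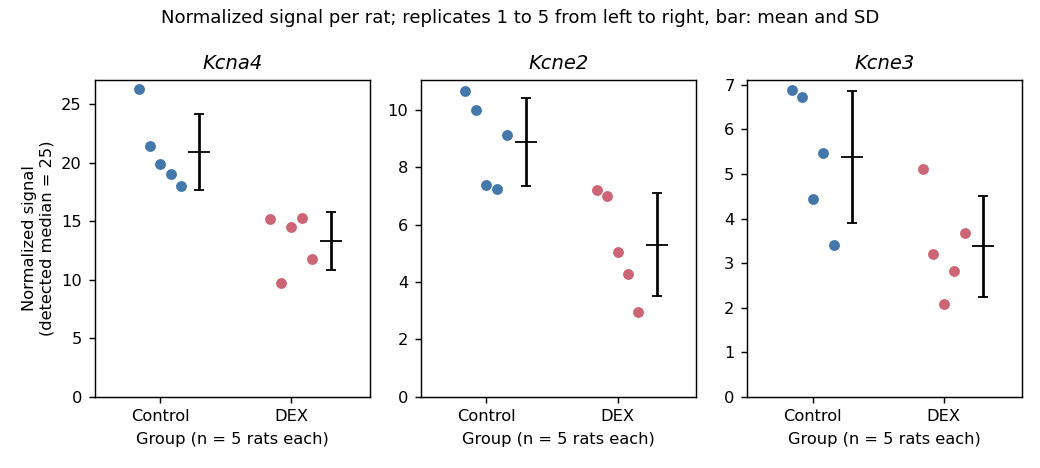
Normalized signal (detected median of 25, linear scale from 0) of Kcna4, Kcne2 and Kcne3 in each of 5 control and 5 DEX rats, with the mean and SD of each group beside the points. The points of Kcna4 are separated by 2.76, those of Kcne2 by 0.0516, and those of Kcne3 overlap.

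Both genes were past the thresholds of limma in the lower direction, where 2.70% of all probes were (3.14% in either direction), and both were without overlap, where 1.44% of all probes (209 of 14519) had every DEX rat below every control rat. Nothing can be read from these shares for genes that were listed for this contrast. Among the 151 listed down-regulated mRNAs the log2 differences ran from -1.20 to -0.55 with a median of -0.67. Kcne2 had rank 32 and Kcna4 rank 83 by the size of the difference, and 42 of the 151 were without overlap. At the edge of the list, the mRNA nearest to a ratio of 1 was Gal3st4, a sulfotransferase gene, at a ratio of DEX to control of 0.669, and the nearest probe outside it, ENSRNOG00000016246, was at 0.670.

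**Figure D2:**
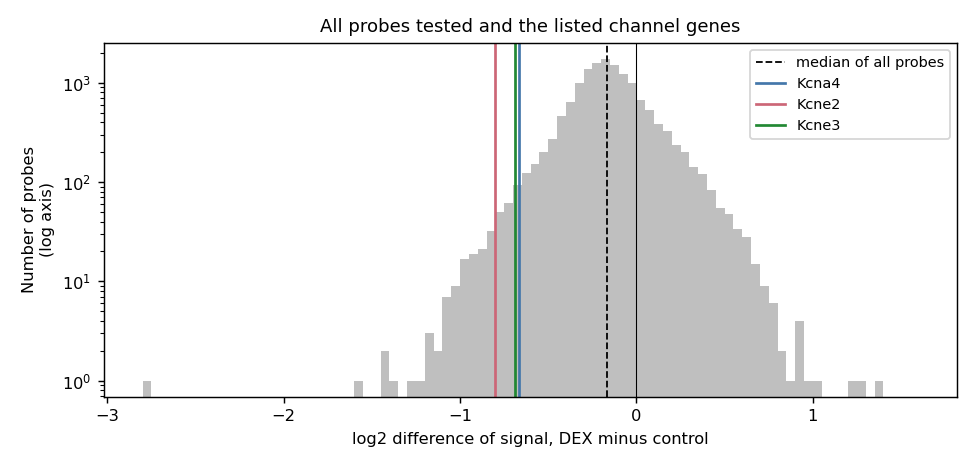
Histogram of the log2 difference of signal, DEX minus control, over 14519 probes (log axis for the number of probes), with lines at the listed channel genes. Kcna4 at -0.66 and Kcne2 at -0.80 lie on the lower flank, and the dashed line marks the median of all probes at -0.17.

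The intensities before any subtraction or scaling showed the genes differently. For Kcna4 the spot intensities were 84.1, 80.3, 81.0, 81.9 and 80.4 on control arrays 1 to 5 and 77.1, 72.5, 76.7, 79.3 and 77.2 on DEX arrays 1 to 5. The groups thus did not overlap in the scanner values themselves, with means of 81.5 ± 1.58 and 76.5 ± 2.46 (each SD, n = 5). Of the 14519 probes, 34 (0.234%) had every DEX spot below every control spot, while the median probe had a spot intensity 1.53 higher on the DEX arrays. Kcna4 was listed for the difference that these same spots gave after subtraction and scaling, so nothing can be read from its place among them.

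For Kcne2 the spot intensities were 68.1, 68.2, 67.0, 68.2 and 70.6 on control arrays 1 to 5 and 68.0, 69.5, 66.5, 66.8 and 66.3 on DEX arrays 1 to 5. These values overlapped, with means of 68.4 ± 1.29 and 67.4 ± 1.35 (each SD, n = 5), a difference of -1.02 that was smaller than the SD of either group. The blank mean, which is subtracted from every spot, was 58.8 ± 1.43 on control arrays and 61.4 ± 1.01 on DEX arrays (each SD, n = 5). It was 2.61 higher on the DEX arrays (two-sided exact permutation test, p = 0.0159). It was 57.1, 57.7, 58.8, 59.8 and 60.5 on control arrays 1 to 5 and 59.9, 61.5, 61.0, 61.9 and 62.6 on DEX arrays 1 to 5. The test takes arrays as exchangeable, although the blank mean tended to rise along the numbers in both groups. Whether the numbers follow the order of array processing is not given in the sources used here. If they do, order and group cannot be told apart. By arithmetic, the difference of 2.61 in the blank mean made up 71.9% of the difference of Kcne2 after subtraction (-3.63) and 34.3% of that of Kcna4 (-7.61). The spots of Kcna4 were brighter than the background recorded around them on 10 of 10 arrays. That background was 62.4 to 76.1 on control arrays and 64.5 to 72.6 on DEX arrays. On control array 2 the Kcna4 spot was at 80.3 and its background at 76.1, against 77.1 and 64.5 on DEX array 1. Measured from the recorded background, the groups of Kcna4 therefore overlapped. The spots of Kcne2 were brighter than their recorded background on 5 of 5 control arrays and on 2 of 5 DEX arrays. On every array the median recorded background (61.9 to 68.2) was above the detection limit, so that other dim detected spots can lie below their background too. The share over all probes was not counted. The part of the blank level in the difference between the groups was not tested.

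**Figure D3:**
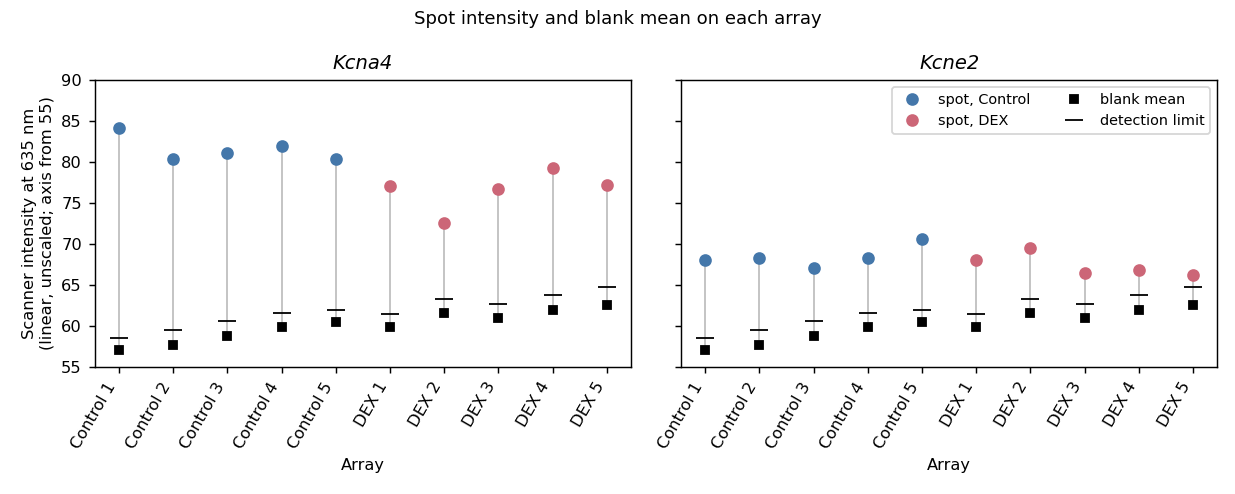
Scanner intensity of the Kcna4 and Kcne2 spots (circles), the blank mean (squares) and the detection limit (dashes) on each of the 10 arrays, on a linear unscaled axis that starts at 55. The circles of Kcna4 step down from the control to the DEX arrays (81.5 and 76.5 on average), while those of Kcne2 overlap (68.4 and 67.4) and the squares are higher on the DEX arrays (58.8 and 61.4).

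Alternatives to the scaling moved the genes in different ways relative to the 1.5-fold limit. Scaling on the probes detected on all arrays brought the median of all probes to -0.02, and there Kcna4 was at -0.51 and Kcne2 at -0.65, so that Kcna4 was under 1.5-fold and Kcne2 was not. The same held for quantile normalization (-0.53 and -0.65) and for the 75th percentile (-0.50 and -0.63), and with block medians subtracted Kcna4 was at -0.58, just under 1.5-fold, and Kcne2 at -0.60, just past it. Without any scaling both were past 1.5-fold (-0.60 and -0.73). Kcna4 was also under 1.5-fold without control array 1 (-0.58) and without DEX array 2 (-0.56). Kcna4 had no overlap between the groups under 7 of 9 processing alternatives and Kcne2 under 1 of 9. In the deposited table of whole numbers, control rats 3 and 4 and DEX rats 1 and 2 have the same value for Kcne2.

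Alternatives that treat the blank level otherwise moved both genes most. With the blank mean of each array as a covariate the log2 difference was -0.32 (standard error 0.20) for Kcna4 and -0.24 (standard error 0.30) for Kcne2. The blank mean was itself higher on the DEX arrays and is already subtracted from each signal. This fit therefore separates the group from the blank level poorly, and its values are not differences corrected for the blank level. Without blank subtraction, which shrinks all log2 differences of dim probes, quantile normalized intensities gave -0.12 (standard error 0.03) for Kcna4, without overlap, and -0.07 (standard error 0.03) for Kcne2, with overlap. A normexp correction with the recorded background gave 0.01 (standard error 0.03) for Kcna4, with the sign turned, and -0.02 (standard error 0.007) for Kcne2. This correction adds an offset of 50 to every corrected intensity, which also shrinks the log2 differences of dim probes. Under this correction the groups of Kcna4 overlapped, and what turned the sign was not tested.

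**Figure D4:**
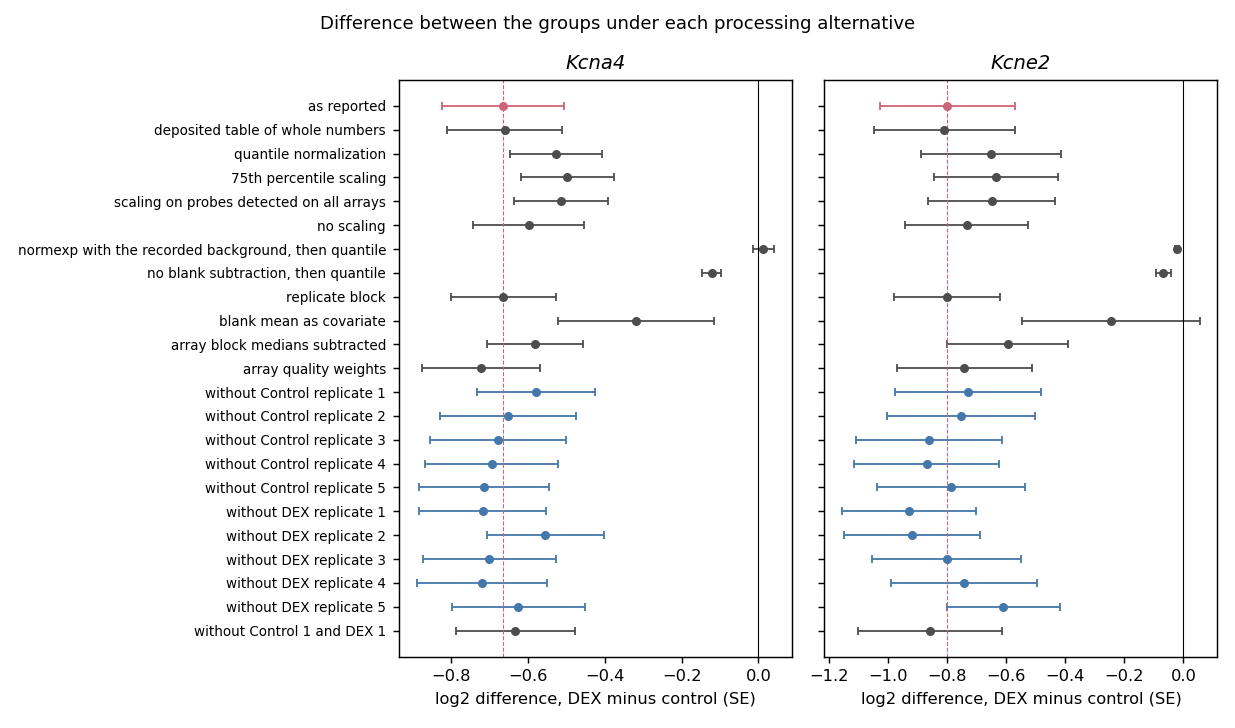
Log2 difference, DEX minus control, with its standard error for Kcna4 (left) and Kcne2 (right) as reported (red), under the processing alternatives and without control 1 and DEX 1 together (grey) and with 1 array left out (blue), each panel with its own axis. The points move farthest from the reported -0.66 and -0.80 where the blank level or the background is treated in another way.

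Within groups the genes were compared rat by rat, as deviations from the mean log2 signal of each group. The spread of these deviations entered the p-values by which each gene was chosen, but the relation between the genes did not. Control rat 1 was above the mean of its group for both genes, by 0.34 for Kcna4 and 0.28 for Kcne2. DEX rat 1 was also above for both, by 0.22 and 0.51. DEX rat 2 was the lowest DEX rat for Kcna4, at -0.43, but among the highest for Kcne2, at 0.47, and DEX rat 5 was at -0.15 and -0.76. Over the 10 rats the deviations were not correlated beyond the spread (Pearson r = 0.14, p = 0.766, and Spearman rho = 0.21, p = 0.593, exact two-sided permutation of rats within groups, 14400 arrangements, the same after adjustment over 3 relations). Without the rats farthest from the median of Kcna4, control rat 1 and DEX rat 2, r was 0.52. Without DEX rat 2 alone r was 0.68 (exact permutation, p = 0.0448), and over all alternatives r ran from -0.48 to 0.68, so that no relation between the genes can be stated from these arrays. The log2 ratio of Kcna4 to Kcne2 within an array, which does not depend on the scaling, was 0.14 higher in the DEX group (standard error 0.29), with an SD of 0.19 in the control group and 0.61 in the DEX group.

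Both genes were set against the blank mean in the same way, a comparison chosen after the data were seen. Deviations of Kcna4 went with those of the blank mean at r = -0.65 (exact permutation, two-sided, p = 0.0453, adjusted over 3 relations p = 0.0679) and rho = -0.70 (exact permutation, p = 0.0366, adjusted p = 0.0924). Without control rat 1 and DEX rat 2 this r was -0.73. For Kcne2 r was -0.63 (exact permutation, two-sided, p = 0.0339, adjusted p = 0.0679) and rho was -0.62 (exact permutation, p = 0.0616, adjusted p = 0.0924), and r was -0.45 without DEX rats 1 and 5, the farthest from the median of Kcne2. None of these passed 0.05 after adjustment. The blank mean enters each signal by subtraction, so that the measures are not independent by construction.

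**Figure D5:**
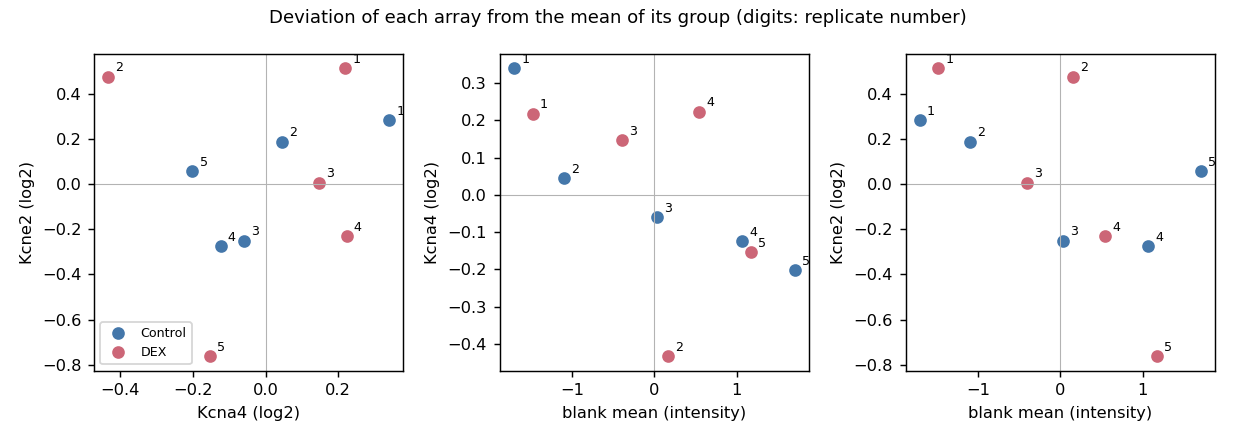
Deviation of each array from the mean of its group (digits give the replicate number): Kcne2 against Kcna4, Kcna4 against the blank mean and Kcne2 against the blank mean, with signals on the log2 scale and the blank mean as intensity. The left panel shows no common order (r = 0.14), and the other panels slope downwards (r = -0.65 and -0.63).

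The listed mRNAs most like each gene among rats of the same group were found by Pearson r of the same deviations over 10 arrays, as a description. For Kcna4 they were Dyrk3, a protein kinase gene (r = 0.90), Abcb4, a phospholipid transporter gene (0.86), Ttn, the sarcomere protein titin (0.86), Slc16a13, of the monocarboxylate transporter family (0.84), and Fas, a death receptor gene (0.83). The least like Kcna4 were Sdr9c7 (-0.49), Olr852 (-0.54) and Grm5 (-0.68), an order that depended on the scaling, since scaling on common probes gave -0.84 for Sdr9c7 and -0.57 for Grm5. For Kcne2 the most like were Fhl4, a LIM domain gene (0.86), Slitrk6 (0.82), Lpin1, a phosphatidate phosphatase gene (0.76), Map10 (0.74) and Atxn7 (0.74), and the least like were Tmprss11d (-0.48), Eda2r (-0.55) and Hamp (-0.68). No mRNA is among the 5 most like both genes. Arrays of a group also differed in their general level, with the median deviation of all probes at 0.25 in control array 1 and -0.17 in control array 5. In the DEX group it was highest in array 1 as well, at 0.21, and lowest in array 3, at -0.14. Whether same-numbered arrays share their level was not tested. The median r over the other 14518 probes was 0.40 for Kcna4 and 0.25 for Kcne2. The highest r over all probes was 0.98 with ENSRNOG00000033244 for Kcna4 and 0.96 with ENSRNOG00000018102 for Kcne2, which have no symbol here.

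Of a list of 41 potassium channel genes, 3 could be named on the array, since symbols are at hand only for the 165 mRNAs that the study lists as changed. The third was Kcne3 (ENSRNOG00000017054), which encodes MiRP2, an accessory subunit of the same family as MiRP1. Its signals were 6.88, 6.73, 4.45, 5.47 and 3.41 in control rats 1 to 5 and 5.12, 3.21, 2.08, 2.82 and 3.68 in DEX rats 1 to 5. The groups overlapped, with means of 5.39 ± 1.48 and 3.38 ± 1.14 (each SD, n = 5) and a log2 difference of -0.69 (standard error 0.25). Its spot intensities were 0.648 higher in the DEX group before the blank mean was subtracted, while the median probe was 1.53 higher. After the subtraction its difference was -1.96. With the blank mean as a covariate, which separates poorly from the group, its log2 difference was -0.11 (standard error 0.33). Its spots were above the background recorded around them on 4 of 5 control arrays and 3 of 5 DEX arrays.

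All 3 potassium channel genes come from the study's list of down-regulated mRNAs, so that nothing can be read from their common direction. Genes such as Kcnh2, Kcnq1, Kcnd2 and Kcnd3 have no symbol here. For 25 other channel and calcium handling genes no value is given here.

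Marker genes of the cell types of the heart could be named for 8 of 37 genes, again only from the listed mRNAs. The labelled tissue could not be checked against defining markers such as Myh6 and Tnnt2, which have no symbol here. Of 9 cardiomyocyte markers 2 were named, Ttn at -0.59 and Myocd, a coactivator of muscle gene transcription, at -0.79 on the log2 scale, each detected on 10 arrays. Their summed signal was 23.3 to 41.1 in the control rats and 16.9 to 22.7 in the DEX rats. Of 7 endothelial markers 3 were named, Arhgef15, Unc5b and Pcdh17, at -0.71 to -0.61, with sums of 33.4 to 64.1 and 23.7 to 33.1. Fap, 1 of 5 fibroblast markers, was at -0.60 (7.71 to 12.6 in control rats and 5.45 to 8.03 in DEX rats), and Slc4a1, 1 of 4 red blood cell markers, was at -0.65 (12.1 to 26.6 and 9.95 to 18.4). The chemokine gene Ccl3, 1 of 4 immune markers, was higher, at 0.60 (5.65 to 9.38 and 7.20 to 14.9), and of 4 smooth muscle and 4 nerve markers 0 could be named. Each named marker was detected on all 10 arrays. These markers could be named only because the study lists them as changed in the same contrast, so that their difference between the groups was fixed by that choice and nothing can be read from their number. With the blank mean as a covariate the log2 difference was -0.17 for Ttn, -0.16 for Myocd, -0.08 for Unc5b, -0.15 for Pcdh17 and -0.09 for Slc4a1, each about as large as its standard error or smaller. It was -0.50 for both Arhgef15 and Fap and 0.86 for Ccl3. As for the channel genes, this fit separates the group from the blank level poorly. With the normexp correction, whose offset of 50 shrinks the log2 differences of dim probes, all 8 lay between -0.04 and 0.01. The part of these cell types in the difference of Kcna4 and Kcne2 was not tested.

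Among the sequences before the start sites, RefSeq promoters of GRCr8 (250 bases before to 50 after the start) were at hand for Kcna4 and Kcne3. Neither held TGACG, the half-site of the cAMP response element, the E-box CACGTG, the GATA motif AGATAA or TATAAA on either strand. These motifs occur in 21.2%, 6.42%, 11.6% and 14.2% of the 33469 promoters. The GC content was 41.7% for Kcna4 and 60.3% for Kcne3, around a median of 51.7%.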

How the data were processed

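mRNA of 10 rat hearts was read on Toray 3D-Gene Rat Oligo chips (Cy5). The authors deposited, per the file headers, the median intensity of each spot and of its background, unscaled, and a table of normalized intensity values rounded to whole numbers. The methods state scaling to a detected median of 25. The remaining steps were found by comparison with that table. From each spot the mean of 1344 blank spots, trimmed by 68 at either end, was subtracted, and spots above it by 2 SD and not marked as failed were detected, which gave 142667 of 142668 deposited values after rounding. The unrounded signals were used. Software versions of the scanner and a genome build are not given in the sources used here.

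The files give Ensembl identifiers only. A probe was named where its ratio of group means and t-test p-value matched those printed in the study's supplementary tables, which worked for all 165 listed mRNAs, each with 1 probe (ratio within 5.25e-07 for lower mRNAs, p-value within a relative 0.0001). No fold change or p-value of those tables is reported. Some genes of the prepared lists are not reported here and are left out of the counts by list. Members and lists were chosen with earlier results of these data known. Genes were named by rule: both members, nameable genes of the channel and marker lists, the 5 most and 3 least like listed mRNAs per member, the edge of the list and up to 2 probes without symbol. Kcnh2, Kcnq1, Kcnd2, Kcnd3, Myh6 and Tnnt2 are named as examples of list genes without a symbol, and the probe outside the edge and the most alike probes are given by identifier.

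On each array, undetected spots were given the lowest signal of any detected probe. log2 signals were then compared with limma 3.58.1 in R 4.3.3 over the probes that at least 3 of 5 arrays detected in either group. Other steps used Python 3.11.15 and scipy 1.17.1. On simulated data with 14519 probes (5 against 5 arrays), limma called 190 of 200 probes changed by 2-fold and 87 of 200 changed by 1.5-fold. The simulated probes varied independently, without the shifts in general level of the real arrays, so these counts need not hold for the real data. Samples of a group were separate rats, and the number of arrays limits the precision. Alternatives were the deposited table, scalings, background corrections, filters, a replicate block, the blank mean as covariate, position, weights, variance options, the methods' t-test and each array left out. The arrays with the most detected probes, control 1 and DEX 1, were also left out together, chosen after the data were seen.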

Additional observations from a re-analysis of the deposited data

Results flagged for a closer look

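In 52 groups of 5 arrays (26 named genes, 2 groups each) 2 single arrays lay far from the other 4 by Dixon's criterion, against 2.6 that chance gives at 1 in 20. Abcb4 was at 3.88 in DEX rat 2, the lowest DEX rat for Kcna4 as well, and between 6.16 and 6.90 in the others. Abcb4 was named for its likeness to Kcna4 (r = 0.86, and 0.74 without DEX rat 2), so nothing can be read from the shared rat. Olr852 was at 3.81 in control rat 2 and between 2.78 and 2.98 in the others. No array was far from the others for Kcna4 or Kcne2.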

How the results depend on the processing

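Leaving out or weighting arrays could not turn the log2 difference of Kcna4 or Kcne2, whose groups did not overlap. Over 22 alternatives, these included, Kcna4 kept its direction in 21 and Kcne2 in 22. Of each, 19 moved by less than 1 SD between rats. The exceptions were the normexp correction (0.013 for Kcna4, -0.020 for Kcne2), quantile normalization without blank subtraction (-0.12 and -0.068) and the blank mean as covariate (-0.32 and -0.24). All but the last shrink log2 differences of dim probes, and what turned the sign of Kcna4 with normexp was not tested. With 1 array left out, Kcna4 lay between -0.72 and -0.56 and Kcne2 between -0.93 and -0.61. The 456 probes called in both directions became 178 with normexp (103 lower, 75 higher), 33 without blank subtraction (2 lower, 31 higher), 298 over probes detected on all arrays and 333 with the methods' t-test (278 lower, 55 higher, and 0 after adjustment). With 1 array left out the count was 279 (without control 1) to 737 (without control 5, with 19 after adjustment). It was 707 without DEX 1. Scaling on common probes gave 114 lower and 193 higher probes, quantile normalization 118 and 195, the 75th percentile 102 and 216, no scaling 233 and 112, block medians 129 and 179, and the blank covariate 79 and 255. The cause of these changes was not tested.

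The replicate block gave 449 calls. This balanced design fixed both log2 differences in advance (-0.66 and -0.80). Same-numbered arrays were uncorrelated across probes (r from -0.10 to 0.07 over 5 pairs, 2 control and 1 DEX array closest to their own number). This r misses a shared shift in level.

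The correlation of Kcna4 with Kcne2 within groups turned negative with quantile normalization (-0.027), the 75th percentile (-0.22), common probes (-0.16), no scaling (-0.15), normexp (-0.48), no blank subtraction (-0.072), the blank covariate (-0.46), block medians (-0.29) and without control 1 and DEX 1 (-0.27). With 1 array left out it lay between -0.058 and 0.68. With normexp the difference of Pcdh17 (0.011) turned, as did the likeness to Kcna4 of Dyrk3 (-0.11) and Ttn (-0.060) and to Kcne2 of Atxn7 (-0.11) and Tmprss11d (0.42, and 0.017 without blank subtraction). With 1 array left out the likeness of Sdr9c7 to Kcna4 lay between -0.65 and 0.00095 (without DEX array 2), and that of Olr852 was 0.045 in the deposited table. With block medians subtracted the likeness of Abcb4 to Kcna4 was 0.45 and that of Lpin1 to Kcne2 was 0.35, and Sdr9c7 lay between -0.84 and -0.81 under this setting, the 75th percentile, common probes and the blank covariate. The distance of a spot from the blank level limits the values of dim probes such as Kcne2 and Kcne3.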
